A study of Rattus norvegicus with 4 samples.

Results

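The glutathione and antioxidant enzyme genes of the rat testis were followed as vitamin A was given back to deficient animals. Members were taken by gene symbol: the soluble glutathione transferases (Gsta, Gstm, Gstp, Gsto, Gstt, Gstk and Gstz), the microsomal ones (Mgst), glutathione peroxidases (Gpx), peroxiredoxins (Prdx), the thioredoxin genes (Txn), superoxide dismutases (Sod), and Gclc, Gclm, Gss, Gsr, Cat and Nqo1. This gave 41 of the 4736 genes with a symbol of their own on the array, read by 75 of 7006 probe sets, and no Gstz gene was among them. The thioredoxin prefix also took in Txnip, Txnl1 and Txnl4b, which are not antioxidant enzymes. No filter on values was applied. Probe sets with several symbols were left out, among them 2 named by both Gsta2 and Gsta5, which are therefore not among the 41. Also left out was 1 probe set named by a gene of these families together with a gene outside them.

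The rats were fed a vitamin A-free diet that began at 20 days of age, and retinol was given once 9 weeks had passed. The groups were vitamin A-deficient testis without retinol (VAD, 0 h) and deficient testis 4, 8 and 24 h after retinol, so that every group had gone through the same diet, and no group fed vitamin A throughout was analysed here. The sources used here do not give strain, retinol dose or the number of animals per sample. Each group was 1 deposited sample of whole testis on an Affymetrix oligonucleotide array, so no value has a replicate and no difference was tested between animals. In whole tissue, fewer cells of a type and less RNA per cell cannot be told apart.

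Glutathione is a small thiol made by glutamate-cysteine ligase (the catalytic subunit Gclc with the modifier Gclm) and glutathione synthetase (Gss). Glutathione peroxidases spend it on peroxides, transferases attach it to reactive molecules, and glutathione reductase (Gsr) restores it with NADPH. Peroxiredoxins do similar work with electrons from thioredoxin, while superoxide dismutases and catalase need neither thiol. Testis uses these systems in steroid-making Leydig cells, where cytochrome P450 reactions leak oxygen radicals, and in germ cells, where Gpx4 also becomes part of the sperm structure.

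The deposited values are linear ratios near 1, and the sources used here do not give their reference. They carry no signal level, so bright and dim genes cannot be told apart, levels cannot be compared between genes, and the presence of testis markers cannot be checked. In the VAD column 59.9% of probe sets lay within 10% of 1, against 29.0%, 24.1% and 22.9% at 4, 8 and 24 h. Changes below are log2 differences in ratio from the VAD array, a gene being the mean of its probe sets. Over 1083 genes with a pair of probe sets from different sequences, the noise of 1 probe set came to 0.43, 0.51 and 0.57 at 4, 8 and 24 h. It is the SD of the gap between the paired changes over the square root of 2. This leaves out the spread between animals. The paired changes correlated only weakly, at 0.14, 0.15 and 0.12. The quartiles of the 41 members were -0.27 and 0.04 at 4 h, -0.37 and -0.003 at 8 h, and -0.47 and -0.02 at 24 h. These are smaller in size than the noise of 1 probe set, so the direction of most single genes is uncertain. The median of all genes was -0.09, -0.12 and -0.12 at these times, and the 9 bacterial spike-in probe sets had medians of -0.55, -0.58 and -0.71.

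As a whole, the antioxidant genes lay slightly below the VAD array, with a few members well above it. The median of the 41 was -0.15, -0.25 and -0.28 at 4, 8 and 24 h. Members below VAD numbered 29, 31 and 31, where 61.1%, 61.5% and 59.9% of all genes were below it. Members above VAD numbered 12, 10 and 10, where 38.8%, 38.5% and 40.0% of all genes were above it. Of 25 members with 2 or more probe sets, 60%, 68% and 68% were below VAD, against 58.3%, 58.7% and 56.7% of all such genes. Of the 16 members with 1 probe set, 14 were below VAD at each time. The share of all genes with 1 probe set below VAD is not given here. At all 3 times 27 of the 41 were lower, against 45.8% of all genes, and 7 were higher, against 24.6%. These 7 were Sod3, Gclc, Gsr, Txnip, Gpx3, Gpx6 and Gstm1. All 3 times share the VAD array, so agreement between them is not independent.

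Few members passed 2-fold. At 4 h there were 0 on either side, where 1.41% of all genes were 2-fold higher and 1.25% 2-fold lower. At 8 h Sod3 and Gclc were 2-fold higher (2 of 41, against 2.83% of all genes) and 0 were 2-fold lower (1.88% of all genes). At 24 h Sod3 and Gclc were again 2-fold higher (2 of 41, against 3.27%) and Txnl1 was 2-fold lower (1 of 41, against 2.64%). With counts this small the shares stand near the background.

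**Figure D1:**
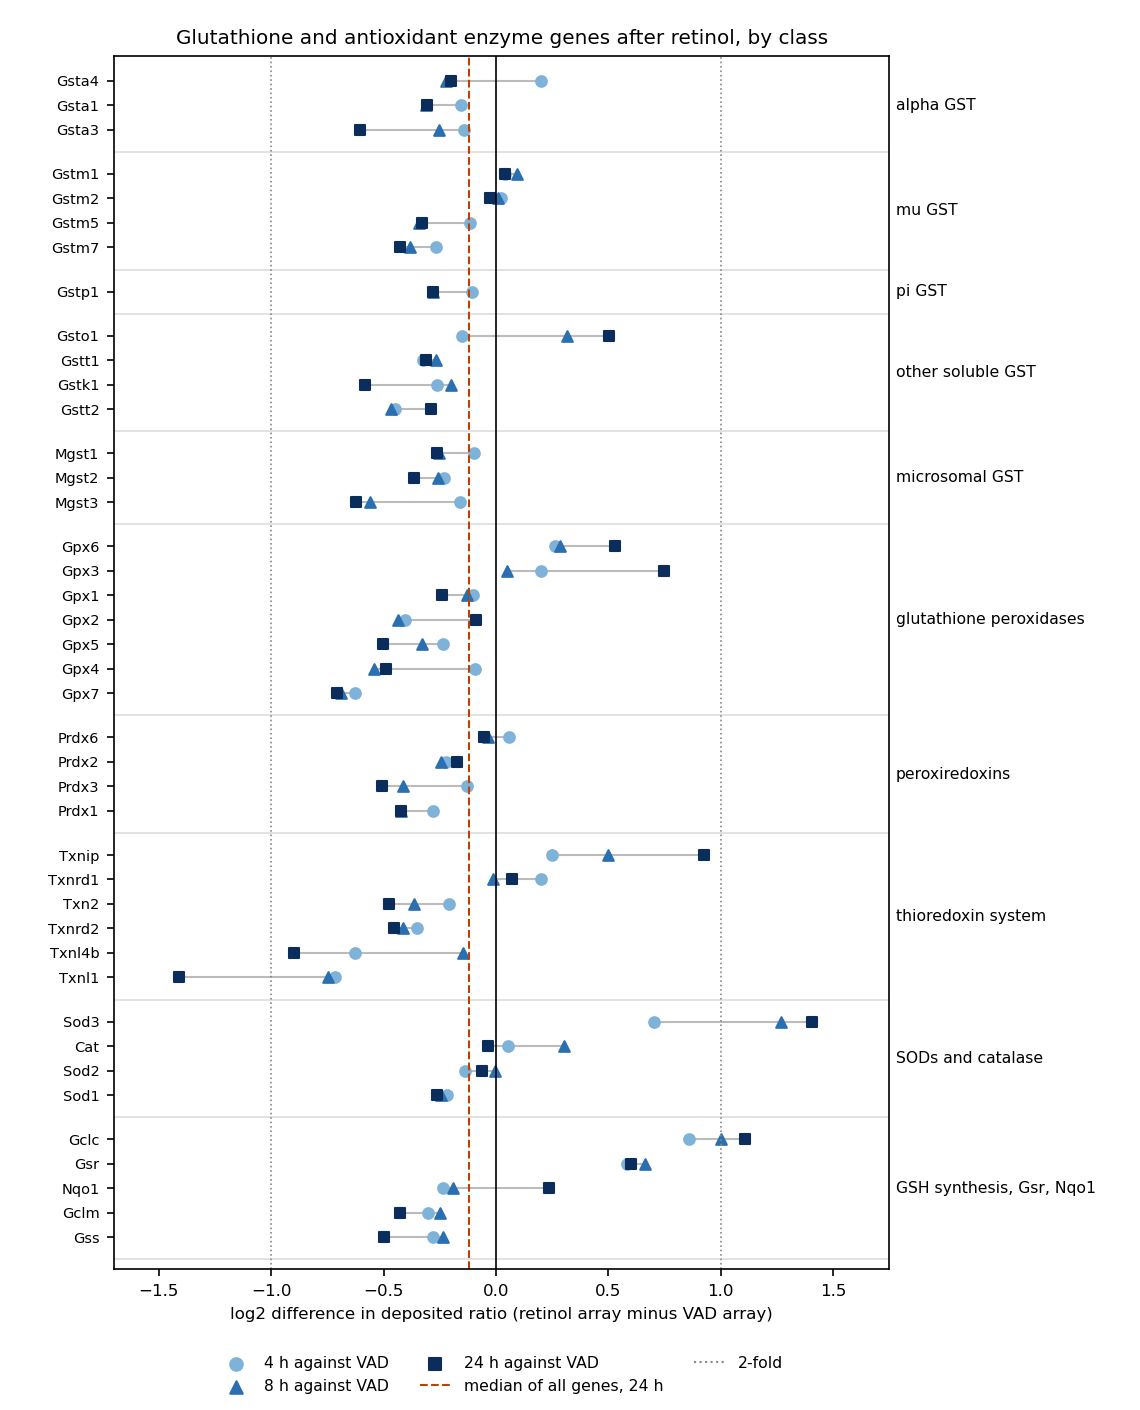
Change of each of the 41 genes (rows, grouped by class) on the 4, 8 and 24 h arrays relative to VAD, in log2 units; dotted lines mark 2-fold and the dashed line the median of all genes at 24 h. Sod3 and Gclc stand beyond the upper dotted line, Txnl1 beyond the lower, and most transferases and peroxiredoxins lie a little left of 0.

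Among the superoxide dismutases and catalase, the extracellular enzyme gene Sod3 stood apart from the intracellular ones by the mean of its probe sets, though not by each of them. Sod3 had a ratio of 0.842 in VAD testis and of 1.37, 2.03 and 2.23 at 4, 8 and 24 h, a change of 0.70, 1.27 and 1.41, or 2.65-fold at 24 h. Of all genes, 1.12% had a change as high at 24 h. Both of its probe sets were above VAD at every time but by different amounts. The larger read 0.695 in VAD and 1.76, 2.97 and 3.20 after retinol, while the smaller read 1.02 in VAD and 1.07, 1.38 and 1.56, so the smaller stayed at 0.61 at 24 h. The larger carries a suffix for shared sequence, and without it Sod3 did not pass 2-fold. Sod3 was also 0.70 higher on the 24 h than on the 4 h array, a difference in which the VAD array has no part. The cytosolic copper-zinc enzyme gene Sod1 had ratios of 1.12 in VAD and 0.959, 0.941 and 0.930 at the later times (-0.22, -0.25 and -0.26). Its probe sets ran from -0.66 to 0.12 at 24 h. The mitochondrial manganese enzyme gene Sod2 had ratios of 1.08, 0.981, 1.08 and 1.03 from VAD to 24 h, within 0.14 of VAD throughout. Catalase, the peroxisomal enzyme encoded by Cat, had 3 probe sets that disagreed. Their changes ran from -0.80 to 0.68 at 4 h, from -0.61 to 0.77 at 8 h and from -0.88 to 0.65 at 24 h, around means of 0.05, 0.30 and -0.03. The smaller Sod3 probe set, at 0.07, 0.44 and 0.61, lay below the highest Cat probe set at each time.

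Genes that make and restore glutathione split. Gclc, the catalytic subunit that limits the rate of glutathione synthesis, had a ratio of 0.720 in VAD testis and of 1.30, 1.44 and 1.55 at 4, 8 and 24 h, from 1 probe set. Its change was 0.86, 1.002 and 1.11, or 2.16-fold at 24 h, and 2.24% of all genes were as high. Its log2 ratio was -0.47 in VAD and 0.64 at 24 h, and between the retinol arrays it was 0.25 higher at 24 h than at 4 h. Gclm, the modifier subunit, went the other way, with ratios of 1.09 in VAD and 0.882, 0.915 and 0.808 afterwards (-0.30, -0.25 and -0.43, and probe sets from -0.74 to -0.13 at 24 h). Gss, which adds glycine in the last step, had 0.928 in VAD and 0.765, 0.788 and 0.657 afterwards, and its pair of probe sets were both below VAD at every time. Gsr, the NADPH-using reductase, had 0.975 in VAD and 1.46, 1.55 and 1.48 afterwards, a change of 0.58, 0.67 and 0.60. Its 3 probe sets were all above VAD at every time, at 0.04, 0.71 and 1.05 at 24 h. Taking the median ratio of each array separately, which falls on different probe sets in VAD and at 24 h, gave 0.12. The quinone reductase gene Nqo1, a textbook target of the stress regulator NRF2, gave no single answer: 1 probe set read 0.967 in VAD and 1.08, 1.103 and 2.03 afterwards, and the other 1.04 in VAD and 0.671, 0.700 and 0.688.

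**Figure D2:**
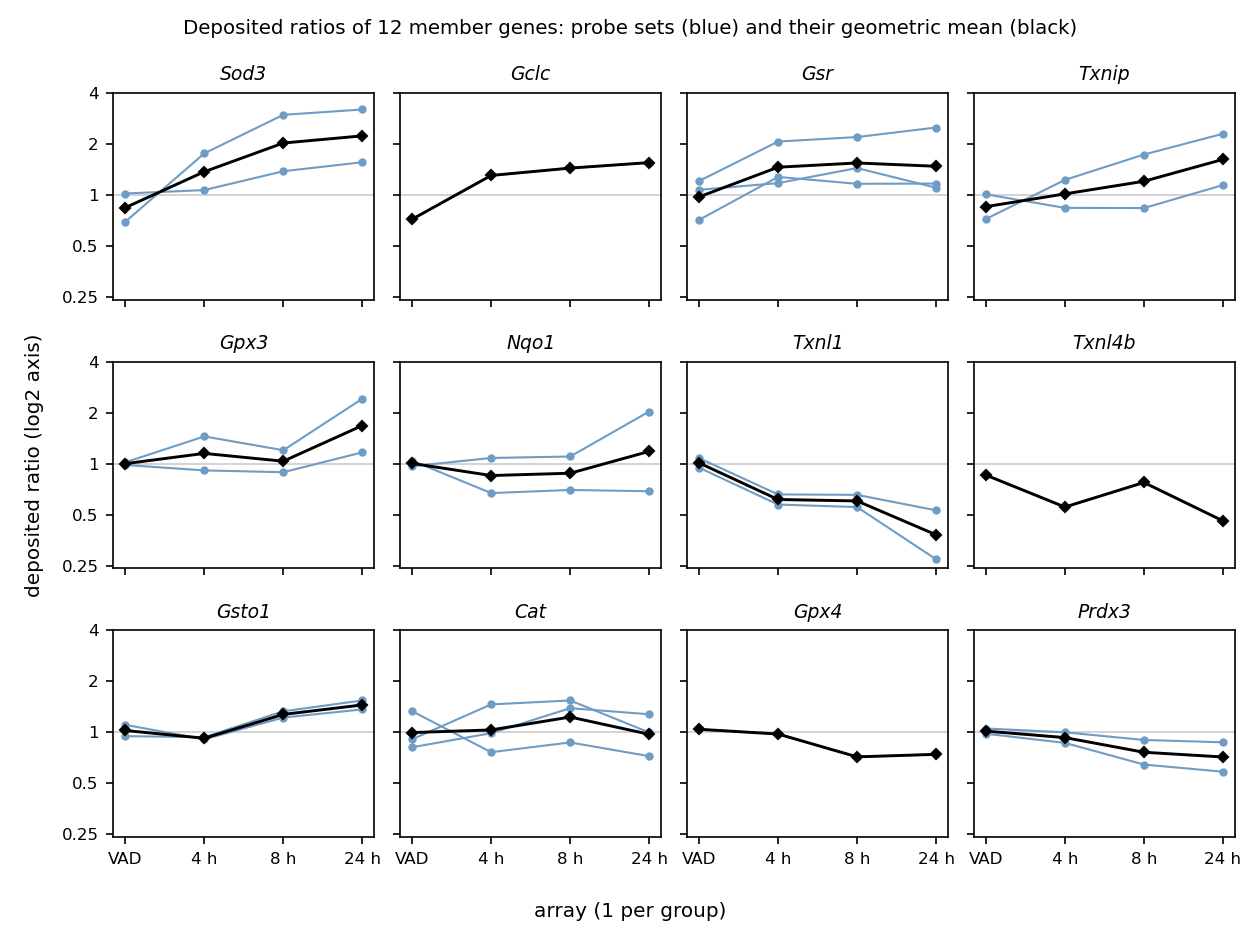
Deposited ratio (log2 axis) on the VAD, 4, 8 and 24 h arrays for 12 genes; blue lines are probe sets, the black line their geometric mean. Sod3 stands at 2.23 and Txnl1 at 0.381 at 24 h, while the probe sets of Nqo1 and Cat part from each other.

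The thioredoxin genes had the widest range of any class at 24 h, though not at 4 or 8 h. Txnip, which binds thioredoxin and blocks it, had a ratio of 0.854 in VAD testis and of 1.02, 1.21 and 1.62 at 4, 8 and 24 h, a change of 0.25, 0.50 and 0.93. Its probe sets differed in size: at 24 h they were at 0.18 and 1.67. Between the retinol arrays Txnip was 0.68 higher at 24 h than at 4 h. Txnl1, a thioredoxin-like protein found with the proteasome, had 1.01 in VAD and 0.615, 0.603 and 0.381 afterwards. This was 2.66-fold lower at 24 h, a change as low as in 0.465% of all genes, and both probe sets, from 1 database sequence, passed 2-fold (-1.80 and -1.02). Txnl4b, a thioredoxin-like splicing factor gene, had 0.857 in VAD and 0.555, 0.775 and 0.460 afterwards, from 1 probe set that moved up and down between times. The mitochondrial pair of thioredoxin (Txn2) and its reductase (Txnrd2) were lower at every time, at -0.47 and -0.46 at 24 h. Txnrd1, the cytosolic selenoprotein reductase, had probe sets at 0.66 and -0.51 at 24 h around a mean of 0.07.

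Of the 7 glutathione peroxidase genes, 5 were below VAD and 2 above it at each time. Gpx3, the secreted plasma enzyme, had 1.001 in VAD testis and 1.15, 1.03 and 1.68 at 4, 8 and 24 h. Most of its change lay between 8 and 24 h, a difference of 0.70, and its probe sets stood at 0.25 and 1.25 at 24 h. Gpx6, known from olfactory tissue, had 1.02 in VAD and 1.23, 1.25 and 1.48 afterwards (0.26, 0.28 and 0.53). Gpx4, which repairs lipid peroxides in membranes and serves in sperm structure, had 1.04 in VAD and 0.978, 0.717 and 0.742 afterwards. It lay close to VAD at 4 h (-0.09) and below it at 8 and 24 h (-0.54 and -0.49). Gpx1, the common cytosolic enzyme, was at -0.10, -0.13 and -0.24, with 3 of its 3 probe sets below VAD at 24 h. Gpx7, an enzyme of the endoplasmic reticulum, had 1.23 in VAD and 0.799, 0.764 and 0.754 afterwards, and Gpx2, the gastrointestinal form, had 0.927 in VAD and 0.700, 0.686 and 0.872. Gpx5, an epididymal enzyme that lacks selenocysteine, had 1.03 in VAD and 0.872, 0.819 and 0.726 afterwards (-0.24, -0.33 and -0.50).

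Peroxiredoxin genes lay in a narrow band, below VAD except for Prdx6 at 4 h. Prdx1, the cytosolic form, had 1.06 in VAD testis and 0.870, 0.787 and 0.788 at 4, 8 and 24 h (-0.28, -0.42 and -0.42). Prdx2, abundant in red cells, was at -0.22, -0.25 and -0.17. Prdx3, the mitochondrial form, was at -0.13, -0.41 and -0.51, with both probe sets below VAD each time. Prdx6, which works with glutathione in place of thioredoxin, was at 0.06, -0.03 and -0.05 from probe sets between -0.36 and 0.47 at 24 h.

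The 15 transferase genes showed small changes and 0 passed 2-fold. Their median was -0.15, -0.26 and -0.31 at 4, 8 and 24 h, and 12, 12 and 13 of the 15 were below VAD, against 61.1%, 61.5% and 59.9% of all genes. Alpha transferases, which also bind steroids and reduce lipid peroxides, had medians of -0.14, -0.25 and -0.31. Gsta1 had 1.01 in VAD testis and 0.904, 0.810 and 0.815 afterwards, with 3 of its 3 probe sets below VAD at 8 and 24 h. Gsta3, whose product is known in steroid-making tissue for isomerising steroid intermediates, had 1.08 in VAD and 0.980, 0.909 and 0.712 afterwards, from probe sets between -1.14 and 0.03 at 24 h. Gsta4, which clears the lipid aldehyde 4-hydroxynonenal, was at 0.20, -0.22 and -0.20. Among mu transferases, Gstm1 (0.04, 0.09 and 0.04) and Gstm2 (0.02, 0.01 and -0.02) stayed near VAD. Gstm5 was at -0.12, -0.34 and -0.33, and Gstm7 at -0.27, -0.38 and -0.43. The pi gene Gstp1 was at -0.11, -0.28 and -0.28.

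The omega gene Gsto1, a thiol transferase that also reduces dehydroascorbate, was the transferase with the largest positive change at 24 h. It had 1.03 in VAD testis and 0.923, 1.28 and 1.45 at 4, 8 and 24 h (-0.15, 0.32 and 0.50), with both probe sets on the same side at each time, and it was 0.65 higher at 24 h than at 4 h. The theta gene Gstt1 was at -0.31 at 24 h, and Gstt2 at -0.45, -0.47 and -0.29 at 4, 8 and 24 h. Gstk1, the kappa form of mitochondria and peroxisomes, was at -0.58 at 24 h. The membrane-bound genes Mgst1, Mgst2 and Mgst3 were each below VAD at all times and each lower at 24 h than at 4 h. Mgst3 had the lowest change of them at 8 and 24 h and Mgst2 at 4 h. Mgst3 had ratios of 1.11 in VAD and 0.991, 0.753 and 0.719 afterwards. Several transferase probe sets carry suffixes for sequences shared within a family, among them all of Gsta1, Gstm1, Gstm2, Gstm7 and Gstp1, so these close relatives may be read together and their separate values are uncertain.

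**Figure D3:**
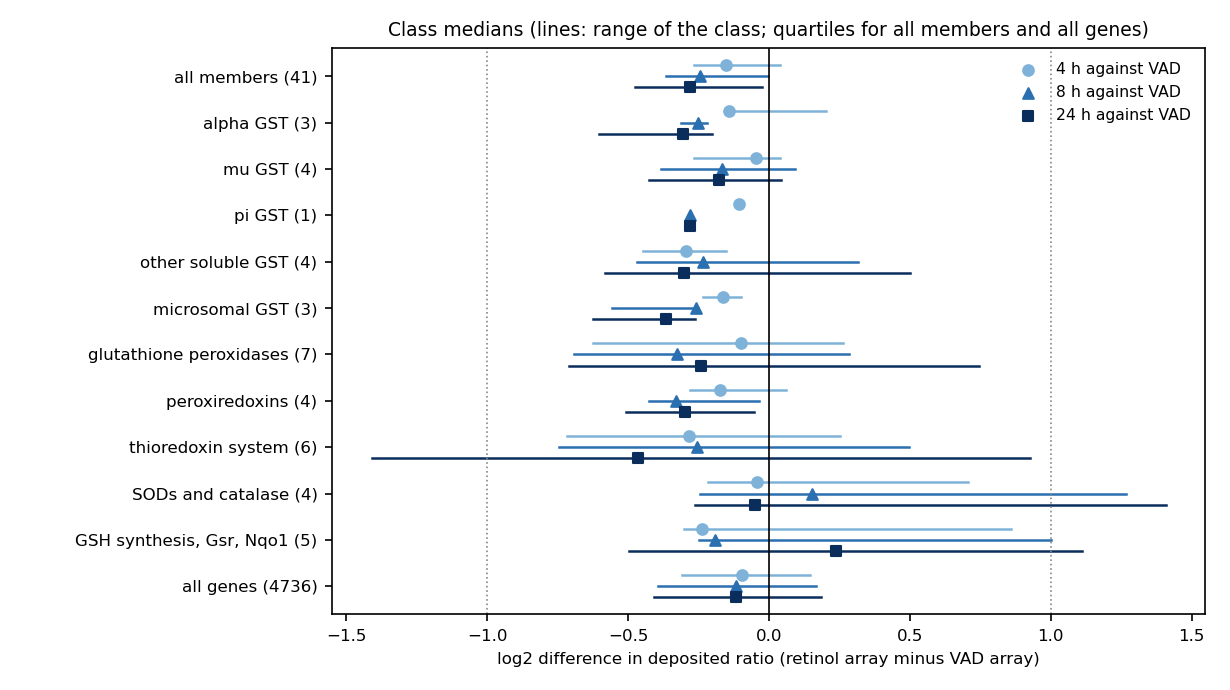
Median log2 change against VAD at 4, 8 and 24 h for all 41 genes, each class and all 4736 genes, with the number of genes in brackets; lines span the class from lowest to highest, or the quartiles for all members and all genes. The 15 transferases and 4 peroxiredoxins stay within 2-fold, while the thioredoxin, dismutase and glutathione synthesis classes reach 2-fold through Txnl1, Sod3 and Gclc.

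Between successive retinol arrays the antioxidant genes moved little. Between 8 and 4 h their median difference was -0.03, as was that of all genes. At 8 h 15 were higher than at 4 h (44.0% of all genes) and 26 lower (55.7%), and 0 passed 2-fold (0.718% of all genes higher and 0.929% lower). The largest were Sod3 (0.56), Txnl4b (0.48) and Gsto1 (0.47) on the positive side and Gpx4 (-0.45), Gsta4 (-0.42) and Mgst3 (-0.40) on the negative. Between 24 and 8 h the median was -0.02, with 16 higher at 24 h (49.9% of all genes), 25 lower (49.8%) and 0 past 2-fold (0.507% and 0.655%). Gpx3 at 0.70, Txnl4b at -0.75 and Txnl1 at -0.66 led. Between 24 and 4 h it was -0.12, against -0.03 for all genes, with 14 higher at 24 h (46.0% of all genes), 27 lower (53.8%) and 0 past 2-fold (1.06% and 1.41%).

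Other genes of redox metabolism were read through lists of glutathione use and the NRF2 axis, NADPH supply, thiol and metal proteins, and oxidant sources, of which 47 of 84 genes had a probe set. Together they had medians of -0.15, -0.16 and -0.22, with 33, 34 and 34 of the 47 below VAD, where the shares of all genes were 61.1%, 61.5% and 59.9%. In the list of glutathione use, 15, 15 and 14 of 24 were below VAD, near those shares, and 1 was 2-fold higher at each time, where 1.41%, 2.83% and 3.27% of all genes were. That was Mat2a, the enzyme that makes the methyl donor S-adenosylmethionine, which had 0.587 in VAD testis and 1.22, 1.54 and 1.61 at 4, 8 and 24 h. Nfe2l2, which encodes NRF2, was at -0.15, -0.37 and -0.51. In the NADPH list 5 of 6 were below VAD at each time, and Idh1, the cytosolic isocitrate dehydrogenase, had 0.892 in VAD and 0.501, 0.446 and 0.440 afterwards. Of the 11 oxidant sources, 10, 9 and 10 were below VAD, and the hydrogen peroxide-making NADPH oxidase gene Nox4 had 1.03 in VAD and 0.308, 0.415 and 0.514 afterwards (-1.73, -1.30 and -0.996). Of the 6 thiol and metal genes, 3, 5 and 5 were below VAD.

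Marker genes of several cell types moved at the same times, and their part in the changes above was not tested. As background, 61.1% of all genes were below VAD at 4 h and 59.9% at 24 h. Above it were 38.5% at 8 h and 40.0% at 24 h. Of 7 measured Leydig cell genes 5 were below VAD at 24 h, with Cyp11a1 at -1.95, Cyp17a1 at -1.63, Fdx1 at -1.28 and Nr5a1 at 1.63, at the time when Gsta3 was lowest. The medians of the 10 measured spermatid genes were 0.75, -0.37 and -0.66 at 4, 8 and 24 h. Gpx4, at -0.09, -0.54 and -0.49, was not above VAD at 4 h as they were, and lay lower at the later times. Against 4 h, 26 of 41 members were lower at 8 h and 27 at 24 h, where 55.7% and 53.8% of all genes were. Higher were 15 and 14 members, against 44.0% and 46.0% of all genes. All 9 measured epididymal genes, Gpx5 included, were below VAD at 24 h, with a median of -0.75 and with Cd52 at -2.55 and Scgb2a1 at -2.24. Of 7 macrophage and leukocyte genes 5 were above VAD at 24 h, with S100a8 at 2.14 and S100a9 at 1.52. C1qb, Lyz2 and Ptprc were at 0.32, 0.27 and 0.24, Ptprc from probe sets between -0.75 and 2.01. Csf1r and Cd74 were below VAD, each at -0.39. Of 4 red cell genes 3 were below VAD at 4 h and 3 above it at 8 and 24 h (medians -0.20, 0.27 and 0.25). The 11 Sertoli cell genes had medians of 0.33, 0.11 and 0.15, the 10 pachytene spermatocyte genes of 0.50, -0.18 and -0.27, and the 3 endothelial genes of -0.22, 0.43 and 0.47. The endothelial genes did not move together. Kdr was more than 2-fold lower at every time, with ratios of 1.03 in VAD and 0.389, 0.465 and 0.403 afterwards. Pecam1 was above VAD at every time, and Vwf was below it at 4 h and above it at 8 and 24 h. Summed marker levels cannot be given from ratios.

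Probe sets of the same gene often disagreed. Of the 25 members with 2 or more, all probe sets shared a sign in 11 at 4 h, 12 at 8 h and 16 at 24 h, or 44.0%, 48.0% and 64.0%, where the shares over all 1565 such genes were 49.0%, 48.8% and 49.5%. Part of the disagreement ran along the kind of sequence that a probe set was designed on. In 10 members some probe sets come from reverse-complemented entries, mostly expressed sequence tags (prefix rc), and others do not. At 24 h the other probe sets lay above the rc ones in 9 of these 10, with a median gap of 0.47, and over all 476 such genes in 60.5%, with a median gap of 0.17. At 4 and 8 h the order held in 8 of 10. Txnrd1 had the widest gap (0.66 against -0.51), followed by Cat (0.65 against -0.37) and Gpx3 (1.25 against 0.25), and Gsr ran the other way (0.54 against 0.71). In the control probe sets for beta-actin, GAPDH and hexokinase, the change differed along the transcript. On average the 5' probe sets lay 0.71, 1.09 and 1.01 above the 3' ones at 4, 8 and 24 h. Where the members' probe sets lie along their transcripts was not examined.

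**Figure D4:**
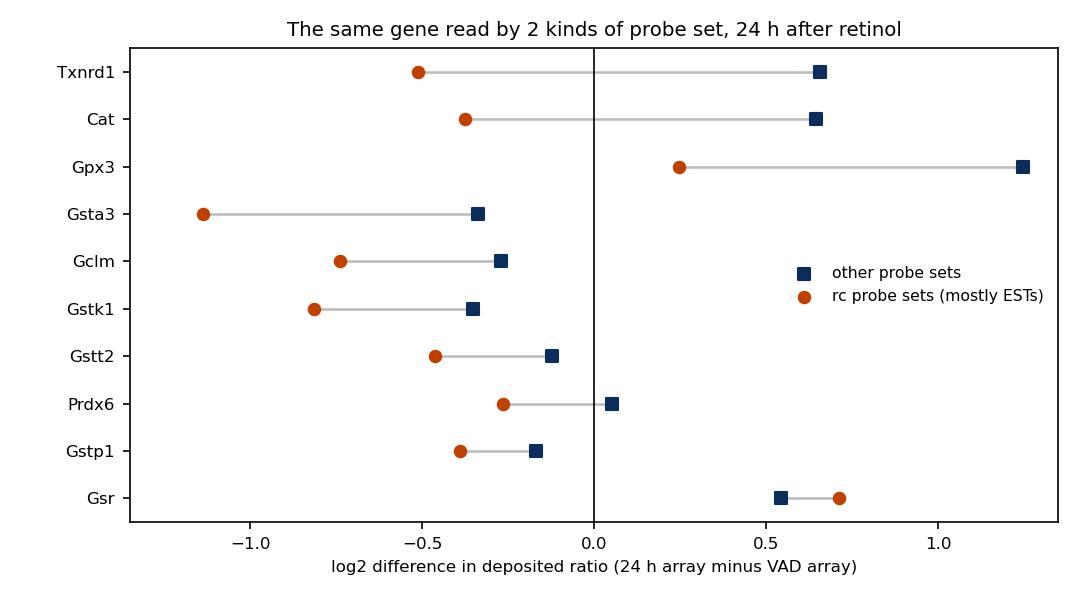
Log2 change at 24 h against VAD for the 10 genes read by both kinds of probe set; squares are the mean of probe sets without the rc prefix and circles the mean of rc probe sets. The squares lie to the right of the circles in 9 of the 10, by 1.17 for Txnrd1, and to the left for Gsr.

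How the genes stood against VAD depended on scaling. Both scalings tried add 1 constant per comparison to every gene, so the gap between members and all genes is the same by construction. Centring each array on the median of all genes moved every change up by 0.10, 0.11 and 0.12 and left medians of -0.056, -0.13 and -0.16. Scaling on the spike-in probe sets would move every change up by 0.55, 0.50 and 0.62 and turn the medians to 0.40, 0.26 and 0.34, with all genes then at 0.45, 0.38 and 0.50. The spike-in shifts are differences between array medians of the spike-ins, which need not equal their median changes of -0.55, -0.58 and -0.71. Negative changes smaller in size than the shift of a scaling change their sign under it, while positive ones keep theirs. Sod3, Gclc and Gsr were above VAD and Txnl1 below it at 24 h under each of these scalings.

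**Figure D5:**
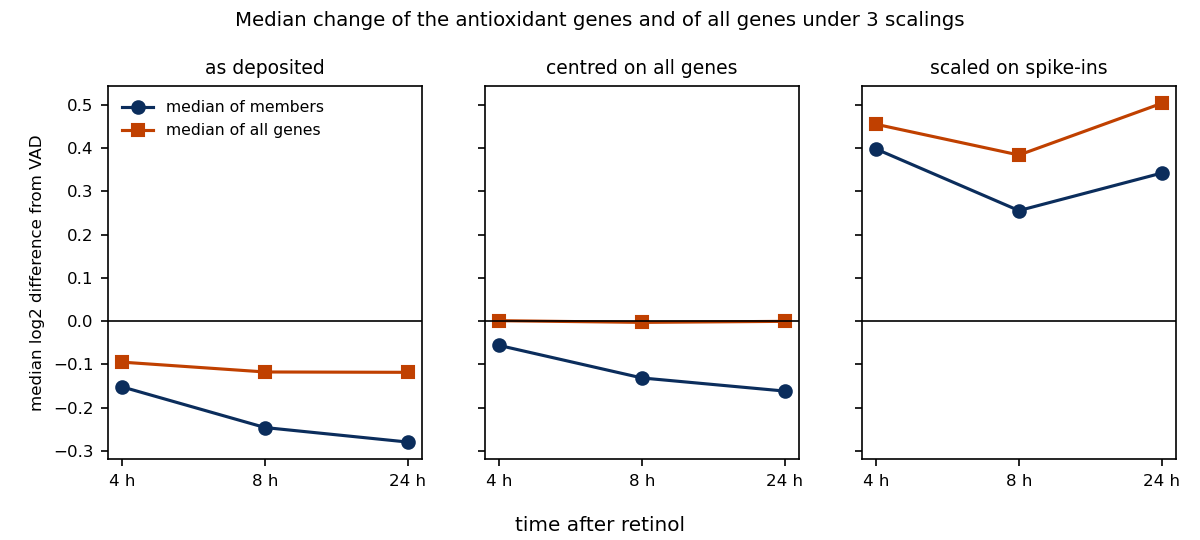
Median log2 change of the 41 genes and of all 4736 genes at 4, 8 and 24 h with the arrays as deposited, centred on all genes, or scaled on the 9 spike-in probe sets. Both lines shift together by construction: at 24 h the antioxidant genes are at -0.28 and all genes at -0.12 as deposited, and at 0.34 and 0.50 after spike-in scaling.

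Many genes of this kind carry an antioxidant response element (ARE), the site through which NRF2 acts, so the RefSeq promoters (250 bases before to 50 after the start, build GRCr8) were searched for its core TGACNNNGC on both strands. A promoter was matched for 34 of the 41 genes. The core stood in 11 of these 34 (32.4%), against 13.1% of 27457 genes, and the members with it were Gclm, Gpx2, Gsta1, Gsta3, Gstm5, Gstm7, Gstp1, Prdx1, Sod2, Txnl4b and Txnrd1. The stricter form TGACTCAGC, which is one case of the core and also holds an AP-1 site, stood in 2 of the 34 (Gstp1 and Prdx1) and in 0.484% of all genes. In this search all genes are the 27457 with a RefSeq promoter, not the 4736 of the array comparisons, so the backgrounds differ. A gene counted if any of its starts held the site, and 3 members had several starts. The sites of 6 genes are shown with their surroundings, since they hold both strict sites, the paired alpha genes, and the enzymes of glutathione synthesis and thioredoxin reduction. Capitals mark the core, or its reverse complement where it lies on the other strand.
Gstp1 (chr1:210769742-210769782, minus strand): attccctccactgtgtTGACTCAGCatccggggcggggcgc
Prdx1 (chr5:135383755-135383795, plus strand): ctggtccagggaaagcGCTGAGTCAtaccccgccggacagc
Gclm (chr2:213031947-213031987, plus strand): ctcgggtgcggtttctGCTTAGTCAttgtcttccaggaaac
Txnrd1 (chr7:22755958-22755998, minus strand): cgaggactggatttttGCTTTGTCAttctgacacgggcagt
Gsta1 (chr9:31216483-31216518, minus strand): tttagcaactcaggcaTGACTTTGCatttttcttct
Gsta3 (chr9:31154956-31154996, plus strand): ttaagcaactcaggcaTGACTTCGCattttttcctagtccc

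Counted from the start site, the first base of the core was at -61 in Gstp1, -135 in Prdx1, -172 in Gclm, -78 in Txnrd1, -17 in Gsta3 and 31 in Gsta1. Gsta1 and Gsta3 are neighbours, and 29 of the 36 bases shown for Gsta1 were the same in Gsta3. The 11 genes with the core had a median change of -0.33 at 24 h, with 10 of 11 below VAD, and the 23 without it had -0.26, with 17 of 23 below VAD. At 4 h these medians were -0.16 and -0.15, and at 8 h -0.28 and -0.24, so members with and without the core had much the same median. A match here is a run of letters and not a shown binding site.

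Gclc, the member with the largest positive change among those with a promoter here, held no ARE core in this window, which says nothing of sites farther away. Its promoter (GRCr8, chr8:87510226-87510525, plus strand, 76.7% G and C) is shown with its GC box GGGCGG, the site of the general factor SP1, in capitals. A GC box on either strand stood in 23 of the 34 promoters (67.6%), against 36.0% of all genes.
Gclc: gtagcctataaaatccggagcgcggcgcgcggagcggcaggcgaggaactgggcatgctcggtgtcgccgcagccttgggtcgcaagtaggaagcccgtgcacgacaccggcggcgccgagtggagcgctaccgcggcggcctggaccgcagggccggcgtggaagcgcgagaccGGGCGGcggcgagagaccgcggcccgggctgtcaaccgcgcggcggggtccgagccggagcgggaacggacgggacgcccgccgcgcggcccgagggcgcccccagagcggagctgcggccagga
The half-site AGGTCA of nuclear receptors, among them the retinoic acid receptors, stood in 6 of the 34 (17.6%), against 16.9% of all genes. These were Cat, Gpx2, Gpx4, Gstm1, Prdx3 and Txnrd2, with median changes of -0.11, -0.41 and -0.27 at 4, 8 and 24 h, against -0.16, -0.25 and -0.29 in the 28 without it. Cat and Gstm1 were above VAD and the other 4 below it at 8 h.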

How the data were processed

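Whole testis RNA of 4 samples, 1 per group, was labelled with biotin for Affymetrix arrays, per the labels' protocols. The deposited table holds a linear ratio per probe set. Per the submitters' processing notes the authors used GCOS and MAS5. The sources used here do not give versions, the reference of the ratio, scaling or pooling. Of 8799 probe sets, 59 were controls, 7006 had 1 gene symbol, 308 several and 1426 none. Only those with 1 symbol were compared. Symbols were updated through Entrez IDs (6985 found in the RefSeq table of GRCr8), which changed 0 of the members' symbols.

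Ratios were put on the log2 scale and averaged over a gene's probe sets, and arrays were subtracted from each other (Python 3.11.15, numpy 2.4.6, pandas 2.3.3). With 1 array per group no test exists and no p-value was computed. The 2-fold threshold served for counts. The number of arrays limits the precision. The procedure was tested on simulated data with planted changes well beyond 2-fold and independent noise, so the test checked the calculation. It does not show that smaller changes, such as those of most members, would be recovered. Members, lists and motifs were chosen with earlier results of these data known. The search for motifs other than the ARE core and the split by rc prefix were added after the values were seen. The plan was to name with all their values the genes past 2-fold and the extremes of each class. It added the genes of glutathione synthesis and recycling, Nqo1, Sod, Cat and those whose probe sets shared a sign at 24 h. Several of these are given only as changes, Gstk1 and Txnrd2 with a value only at 24 h, and Mgst1 only by its side of VAD. Other members were added after their values were seen. Of the redox and marker lists, genes past 2-fold qualified, and only part of these is printed. Protein features, planned at first, are not analysed here.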

Additional observations from a re-analysis of the deposited data

How the results depend on the processing

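No gene past 2-fold changed sign under any alternative run, and the median of the members kept its sign except under spike-in scaling. Centring gave medians of -0.056, -0.13 and -0.16 at 4, 8 and 24 h, spike-in scaling 0.40, 0.26 and 0.34, and the probe set with the highest mean -0.074, -0.16 and -0.17. With rc probe sets alone (19 genes) the median was -0.41 at 8 h and -0.46 at 24 h, and with the others alone (32 genes) -0.19 at 24 h. That split was chosen after seeing the data. Counts of 2-fold higher members, 0, 2 and 2 as reported, became 3 at 4 h and 7 at 24 h after spike-in scaling, 1 at 4 h and 6 at 24 h with the highest probe set, and 1 at 8 h and 1 at 24 h when set against 1 in place of VAD. They became 0 at 8 and 24 h among the 33 members with a VAD ratio within 10% of 1, which leaves out Sod3 and Gclc, and 0 at both times with rc probe sets alone. Of all 3046 genes in that VAD window, 42 were 2-fold higher at 8 h and 44 at 24 h. Without suffixed probe sets the 8 h count was 1. At 1.5-fold the counts were 2 at 4 h and 5 at 24 h higher, and 3, 2 and 5 lower. The 24 h count of 2-fold lower members, 1 as reported, was 0 after spike-in scaling, without the members that are not enzymes and without rc probe sets, and 2 against 1, without suffixed probe sets and with rc probe sets alone. Apart from the VAD window, shares of all genes under these settings are not given here, so the counts do not set members apart from all genes. Spike-in scaling lifts every gene by construction, by 0.55 at 4 h and 0.62 at 24 h. Except for the loss of members under some settings, the cause of the differing counts was not tested. No paired analysis was possible because each group has 1 sample and the labels give no replicate numbers.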

Other observations

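A pair of probe sets named by both Gsta2 and Gsta5 was left out of the comparisons. The first had ratios of 1.05 in VAD testis and 1.265, 1.103 and 0.897 at 4, 8 and 24 h, and the second 0.881 in VAD and 0.773, 0.953 and 0.565, so both were below VAD at 24 h (-0.23 and -0.64).

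Neighbouring genes of 1 family did not always stand on the same side. Gpx5 and Gpx6 lie next to each other in the gene order of GRCr8, with 0 protein-coding genes between them, and were at -0.50 and 0.53 at 24 h. Gstm1 and Gstm2, also adjacent, were at 0.04 and -0.02, and Gstm5 and Gstm7, with 1 gene between them, at -0.33 and -0.43. Gclc and Gsta4 have 4 genes between them and were at 1.11 and -0.20.

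Taken as the mean log2 ratio over all 4 arrays, the members had a median of -0.15, against -0.10 for all genes. Below 0 were 32 of the 41 members and 2959 of all 4736 genes. The median log2 ratio in VAD was 0.01 for the members and -0.01 for all genes, so these means follow mainly the retinol arrays. Sod3 had the highest mean (0.60), followed by Gsr (0.43), Gpx6 (0.30) and Gclc (0.27). Txnl1 (-0.70) and Txnl4b (-0.64) had the lowest. By class the medians were 0.07 for the dismutases and catalase, -0.04 for glutathione synthesis, recycling and Nqo1, and -0.30 for the thioredoxin genes. The other classes lay from -0.22 to -0.11.

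The VAD ratio is subtracted in every change against VAD, so that a low VAD ratio favours a positive change by construction. Of the 5 members with a VAD ratio below 0.9 (Gclc, Sod3, Txnip, Txnrd1 and Txnl4b), 4 were above VAD at 24 h, and of the 3 above 1.1 (Gpx7, Sod1 and Mgst3), 0 were. Over all genes, 52.3% of those below 0.9 and 41.0% of those above 1.1 were higher than VAD at 24 h. Of those in between 36.3% were, so the share did not fall steadily as the VAD ratio rose. Set against 1 in place of VAD, Sod3 was at 1.16, Gclc at 0.64 and Txnip at 0.70 at 24 h.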
